A study of Mus musculus with 18 samples.

Results

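The genes described here are 50 protein-coding mouse genes that license, start and carry out DNA replication or take the cell from G1 into S phase. They were chosen by function, from a list of names, and each was matched to the deposited transcripts through its Entrez gene. All 50 were found among the 19630 genes of the deposited table, and all 50 passed the filter on low counts, which kept 15389 genes. By role they comprise 11 licensing genes, 8 genes of origin firing, 19 genes of fork synthesis, 5 genes of nucleotide supply, 4 genes of the G1/S switch and 3 genes of histone supply and assembly.

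Before a cell copies its DNA, the origin recognition complex, Cdc6 and Cdt1 load the Mcm2 to Mcm7 helicase onto origins in G1, a step called licensing that geminin (Gmnn) limits later in the cycle. The kinase of Cdc7 and Dbf4, with Cdc45, the GINS complex and Mcm10, then turns the loaded helicase on, and polymerases alpha, delta and epsilon copy the strands with the clamp Pcna, its loader Rfc and the single-strand binding complex Rpa. Most of these genes are transcribed under E2F factors, which the retinoblastoma proteins restrain and cyclin E kinase releases, and p53 holds the same step back through the kinase inhibitor p21. Embryonic stem (ES) cells are known for a short G1 phase and a high share of cells in S phase, whereas fibroblasts used as feeders are often growth-arrested.

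Messenger RNA was sequenced from 18 libraries, 3 for each of 6 groups. Embryonic fibroblasts without ES cells made up the control feeders and the feeders labelled p53-defective. Each kind of feeder was also sequenced with ES cells growing on it, and these co-culture libraries hold RNA of both kinds of cell. In the other groups the labels give ES cells alone: one in which control feeders had been removed, and one in which ATN161, a peptide inhibitor of integrin α5β1, stood in for the feeders. The labels name no strain, no ES cell line, no dose or time of ATN161, and neither the alteration of p53 nor whether the feeders had been growth-arrested. They also do not say whether the removed feeders were separated before lysis or left out of culture. Library totals were 15.12 to 19.83 M (mega) counts, and 1 count was at most 0.0661 counts per M counts (CPM). The labels do not tell separate cultures from repeated libraries of 1 culture, and every p-value here reflects no more than library-to-library spread, which may be technical.

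The label of the feeders was checked on Trp53, the p53 gene. Trp53 stood at 326, 317 and 244 CPM in the feeders labelled p53-defective and at 123, 124 and 112 CPM in control feeders, so its RNA was higher, not lower, under that label. Cdkn1a, which encodes p21, stood at 305, 290 and 186 CPM against 680, 649 and 663 CPM, and fell by 1.35 ± 0.12 on the log2 scale (edgeR adjusted p = 4.6e-10). The value after ± is, for log2 fold changes, a standard error worked back from edgeR's test statistic, and for levels and ratios the SD of 3 libraries. The feeders also differed in cell type markers. The summed level of 12 fibroblast markers was 47790 ± 4620 CPM in control feeders and 20190 ± 2790 CPM in feeders labelled p53-defective, with 11 of the 12 lower, and Postn at 3.06 and Lum at 0.0601 CPM in the latter against 5915 and 271 CPM. The sum of 6 macrophage markers was 147 against 6.88 CPM, with Ptprc and Adgre1 listed at 0 in all libraries of the latter. Of 10 ES cell markers, Pou5f1, Zfp42, Tdh and Utf1 were at 0 in every feeder library, and the sum was 9.61 against 54 CPM, of which Tfcp2l1 made up 49.2 CPM.

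The 2 co-cultures differed widely in cell type markers. The ES cell markers summed to 3150 ± 85.3 CPM on control feeders and to 338 ± 70.6 CPM on feeders labelled p53-defective, with all 10 lower in the latter. The fibroblast markers summed to 8801 ± 198 and 30230 ± 6900 CPM, the latter above the 20190 ± 2790 CPM of the same feeders alone. Between the co-cultures 8 of the 12 were higher, 2 lower and 2 not called. A set of 432 ES-specific genes, which exceeded both kinds of feeders by 8-fold or more after feeder removal and with ATN161 and held 0 of the 50 genes, stood at a median of 80.2% ± 0.31 of the feeder-removed level on control feeders and 7.86% ± 0.7 on feeders labelled p53-defective (mean ± SD, n = 3). In such bulk libraries, fewer ES cells, less RNA per ES cell and a lower level of these genes in each ES cell cannot be told apart. The part of the marker difference in the levels below was not tested.

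Promoter sequence was available from RefSeq (GRCm38.p6) for 41 of the 50 genes, as windows of 300 bases from 250 before to 50 after each start site. Gmnn, Mcm4, Gins1, Gins2, Gins4, Prim2, Pole, Rfc2 and Ccne2 had none. The letters TTTGGCGC, TTTCCCGC, TTTCGCGC or TTTGCCGC, core forms of the E2F site, were searched on both strands, where TTTCGCGC and the reverse complement GCGCCAAA can share bases. They occurred in 15 of the 41 genes (36.6%) and in 3.3% of 17492 coding genes with windows of this length. The CCAAT box (CCAAT, both strands) occurred in 56.1% of the 41 and 42.3% of coding genes, the GC box (GGGCGG, both strands) in 80.5% and 49.2%, and the cell cycle homology letters TTTGAA or TTCGAA in 24.4% and 20.2%. Stretches upstream of the start site are shown for 6 genes with E2F letters that were lower in ES cells on feeders labelled p53-defective than in ES cells on control feeders. Rpa1 and Rrm1, whose windows held CCAAT boxes and no E2F letters, were higher there and are shown beside them. They were picked for display and stand for no rule: 20 of the 26 genes with a window and without E2F letters fell there, Rfc3 with such letters rose, and the windows of Mcm5, Mcm6, Orc1, Gins3 and Pola1 also held CCAAT boxes. Each stretch runs 5′ to 3′ on the strand of its gene. Capitals mark the E2F letters, or in Rpa1 and Rrm1 the CCAAT letters, on either strand, and other motifs are left in lower case.
Mcm5, chr8:75109331-75109392, plus strand: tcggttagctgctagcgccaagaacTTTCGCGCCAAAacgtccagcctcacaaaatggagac
Mcm6, chr1:128359720-128359840, minus strand: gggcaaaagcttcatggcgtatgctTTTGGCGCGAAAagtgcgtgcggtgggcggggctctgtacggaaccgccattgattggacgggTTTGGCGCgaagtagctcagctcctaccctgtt
Orc1, chr4:108579402-108579453, plus strand: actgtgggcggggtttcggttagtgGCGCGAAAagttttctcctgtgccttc
Cdc6, chr11:98907988-98908045, plus strand: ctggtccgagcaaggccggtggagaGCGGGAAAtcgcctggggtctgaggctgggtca
Pola1, chrX:93632261-93632318, minus strand: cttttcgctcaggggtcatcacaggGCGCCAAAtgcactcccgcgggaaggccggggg
Gins3, chr8:95633493-95633550, plus strand: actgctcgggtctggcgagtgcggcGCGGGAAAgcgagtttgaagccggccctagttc
Rpa1, chr11:75348396-75348450, minus strand: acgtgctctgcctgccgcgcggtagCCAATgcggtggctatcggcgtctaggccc
Rrm1, chr7:102441579-102441679, plus strand: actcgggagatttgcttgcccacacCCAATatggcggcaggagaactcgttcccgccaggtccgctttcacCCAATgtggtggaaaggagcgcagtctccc

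The summed level of the 50 genes differed between the groups by far more than between replicates. It was lowest in control feeders (1507 to 1579 CPM), higher in ES cells on feeders labelled p53-defective (between 3010 and 3423 CPM) and in these feeders alone (3058 to 3488 CPM), whose ranges overlapped, and higher again in ES cells on control feeders (5554 to 5769 CPM). After feeder removal it was 7145 to 7221 CPM, and with ATN161 8589 to 8712 CPM. Gene by gene, 40 of the 50 had their lowest group mean in control feeders and 42 their highest with ATN161. The same order was not counted over all genes tested. Of those, 45.1% were called higher in ES cells after feeder removal than in control feeders. With ATN161, 33.6% were called higher than in ES cells on control feeders. Cdc6, Gins3, Cdc7, Dbf4, Pold3, Pole and E2f2 were lowest in ES cells on feeders labelled p53-defective, Rrm2 and Ccne1 in those feeders alone, and Ccne2 in ES cells on control feeders. The ratio of the highest to the lowest group mean ran from 1.94 for E2f1, the founding E2F factor, to 16.8 for Rfc5, a subunit of the clamp loader.

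**Figure D1:**
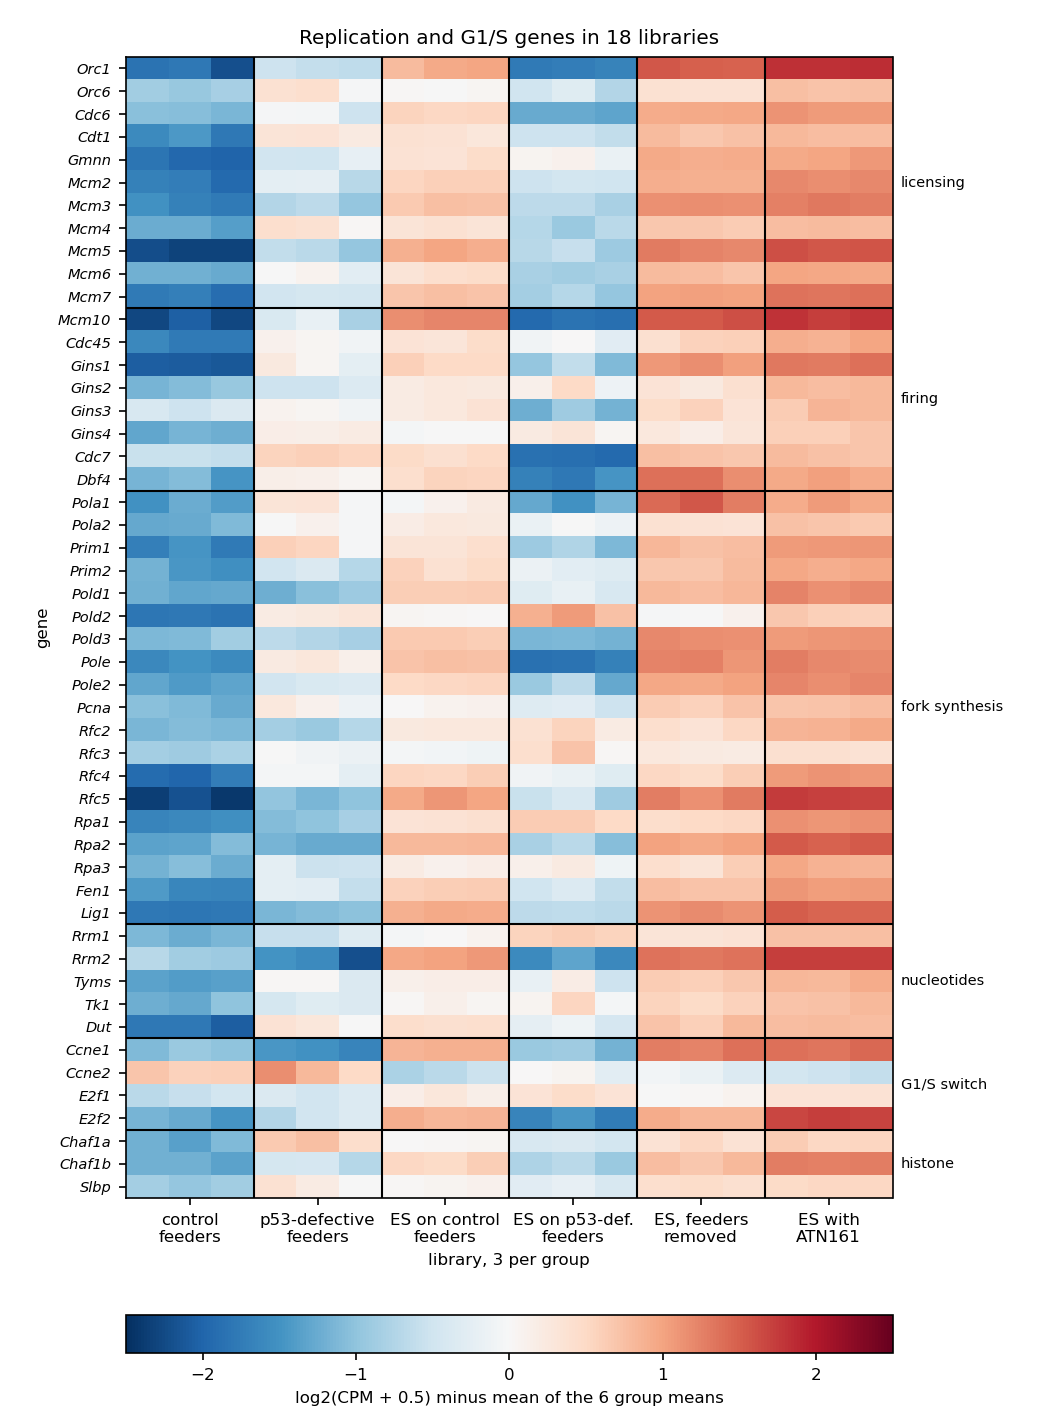
Level of each of the 50 genes (y axis, grouped by role) in each of the 18 libraries (x axis, 3 per group), as log2(CPM + 0.5) minus the mean of the 6 group means, in colour from blue (below) to red (above). Control feeders are blue for 40 genes that are lowest there, ES cells with ATN161 are red for 42 genes that are highest there, and ES cells on feeders labelled p53-defective hold red cells for Pold2, Rfc3, Rpa1 and Rrm1 beside blue ones for Mcm10, Cdc7 and Pole.

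The first comparison set the feeders labelled p53-defective against control feeders, without ES cells. Of the 50 genes, 46 rose and 2 fell at a Benjamini-Hochberg adjusted p below 0.05 in edgeR's quasi-likelihood test, and 2 were not called. Over all genes tested, 74.3% were called, 35.9% higher and 38.4% lower. The median log2 fold change was 1.16 for the 50 genes and -0.01 for all genes tested, and 28 of the 50 rose at least 2-fold, beside 15.3% of all genes tested. Of the 50 genes, 44 rose with all 3 libraries above the 3 of control feeders, which held for 34% of all genes tested.

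All 11 licensing genes rose, with log2 fold changes of 0.87 to 1.93. Cdt1, which loads the helicase with Cdc6, stood at 87.3, 88.2 and 81.4 CPM against 22.6, 25.3 and 19.7 CPM in control feeders. Its 3 libraries lay well apart from the controls, and it rose by 1.93 ± 0.08 on the log2 scale (edgeR adjusted p = 9.08e-16). Mcm7, a helicase subunit, stood at 179, 183 and 181 CPM against 72.9, 76.1 and 65.8 CPM and rose by 1.34 ± 0.07 (edgeR adjusted p = 8.69e-14). Gmnn, which blocks Cdt1, rose by 1.58 ± 0.10 in the same libraries. The smallest rise of the class was that of Mcm3, at 0.87 ± 0.08. The third library of the feeders labelled p53-defective stood below the other libraries of its group for Mcm2, at 152 CPM beside 208 and 211 CPM, and still lay above every control library (75.7, 73.7 and 63.1 CPM).

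All 8 firing genes rose, and the largest change of the 50 genes was among them. Gins1, a subunit of the GINS complex that joins the helicase, stood at 19.1, 16.5 and 13.4 CPM against 3.45, 3.41 and 3.3 CPM, a log2 fold change of 2.27 ± 0.14. Cdc45, which completes the active helicase, rose by 1.78 ± 0.10 (38.1, 36.8 and 33.2 against 11.3, 10 and 10.1 CPM, edgeR adjusted p = 1.16e-13). Mcm10, needed to start unwinding, rose by 1.80 ± 0.12, and Cdc7 and Dbf4, the kinase and its activating subunit, by 1.16 ± 0.07 and 1.34 ± 0.10.

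Of the 19 fork genes, 18 rose. Pold2, an accessory subunit of polymerase delta, stood at 66.9, 69 and 71.7 CPM against 16.2, 16.4 and 15.6 CPM and rose by 2.10 ± 0.08 (edgeR adjusted p = 5.22e-16). The catalytic subunit Pold1 differed by only 0.21 ± 0.08, with overlapping libraries (24.8, 28 and 30.6 against 25.1, 23.4 and 23.6 CPM). Its call was lost without the third library of the feeders labelled p53-defective, at 0.14. Pole, the catalytic subunit of polymerase epsilon, rose by 1.82 ± 0.08 (55.7, 58.5 and 52.4 against 15.2, 16.5 and 15.5 CPM, edgeR adjusted p = 1.48e-15). Rfc4, of the clamp loader, rose by 1.81 ± 0.09 (34.9, 35.2 and 30.4 against 9.17, 8.85 and 10.6 CPM, edgeR adjusted p = 3.38e-14). Rpa2 was the fork gene not called, at 23.3, 21.9 and 21.8 against 20.7, 21 and 24.5 CPM (0.02 ± 0.09, edgeR adjusted p = 0.898), while its partners Rpa1 and Rpa3 rose by 0.64 ± 0.07 and 0.75 ± 0.11.

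Among the nucleotide genes the subunits of ribonucleotide reductase, which makes deoxyribonucleotides, went opposite ways. Rrm1, the large subunit, rose by 0.68 ± 0.07 (170, 170 and 202 against 116, 107 and 115 CPM). Rrm2, the small subunit that sets activity in S phase, fell by 0.91 ± 0.12 (52.2, 49.3 and 32.1 against 91.5, 81.1 and 79.2 CPM, edgeR adjusted p = 3.23e-07). In each case the groups did not overlap. Dut, which removes dUTP, rose by 2.11 ± 0.10 (149, 142 and 116 against 33.1, 33.4 and 27.5 CPM, edgeR adjusted p = 9.94e-15), and the thymidylate genes Tyms and Tk1 rose by 1.30 ± 0.13 and 0.82 ± 0.12.

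The 4 G1/S switch genes were split. Ccne1, one of the E cyclins, fell by 0.53 ± 0.08 (25.5, 24.6 and 22.3 against 32.6, 36.8 and 35.2 CPM, edgeR adjusted p = 5.38e-06). Ccne2, its paralog, was not called (19.3, 14.9 and 12 against 13.7, 12.6 and 12.9 CPM, 0.24 ± 0.13, edgeR adjusted p = 0.119), and was called at 0.39 without the third library of the feeders labelled p53-defective. E2f2 rose by 0.89 ± 0.14. E2f1 was called at 0.18 ± 0.07 with overlapping libraries (33.4, 30.7 and 33.5 against 26.8, 28.4 and 30.9 CPM), and lost the call without that same library, at 0.16, and without the first control library, at 0.13. All 3 histone genes rose. Chaf1a, of the assembly factor that places histones on new DNA, stood at 104, 111 and 90 against 28.3, 25.3 and 30.3 CPM (1.86 ± 0.08, edgeR adjusted p = 4.71e-15). Beside these values, the fibroblast and macrophage markers were lower in the same feeders, as given above, and their part in the differences was not tested.

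**Figure D2:**
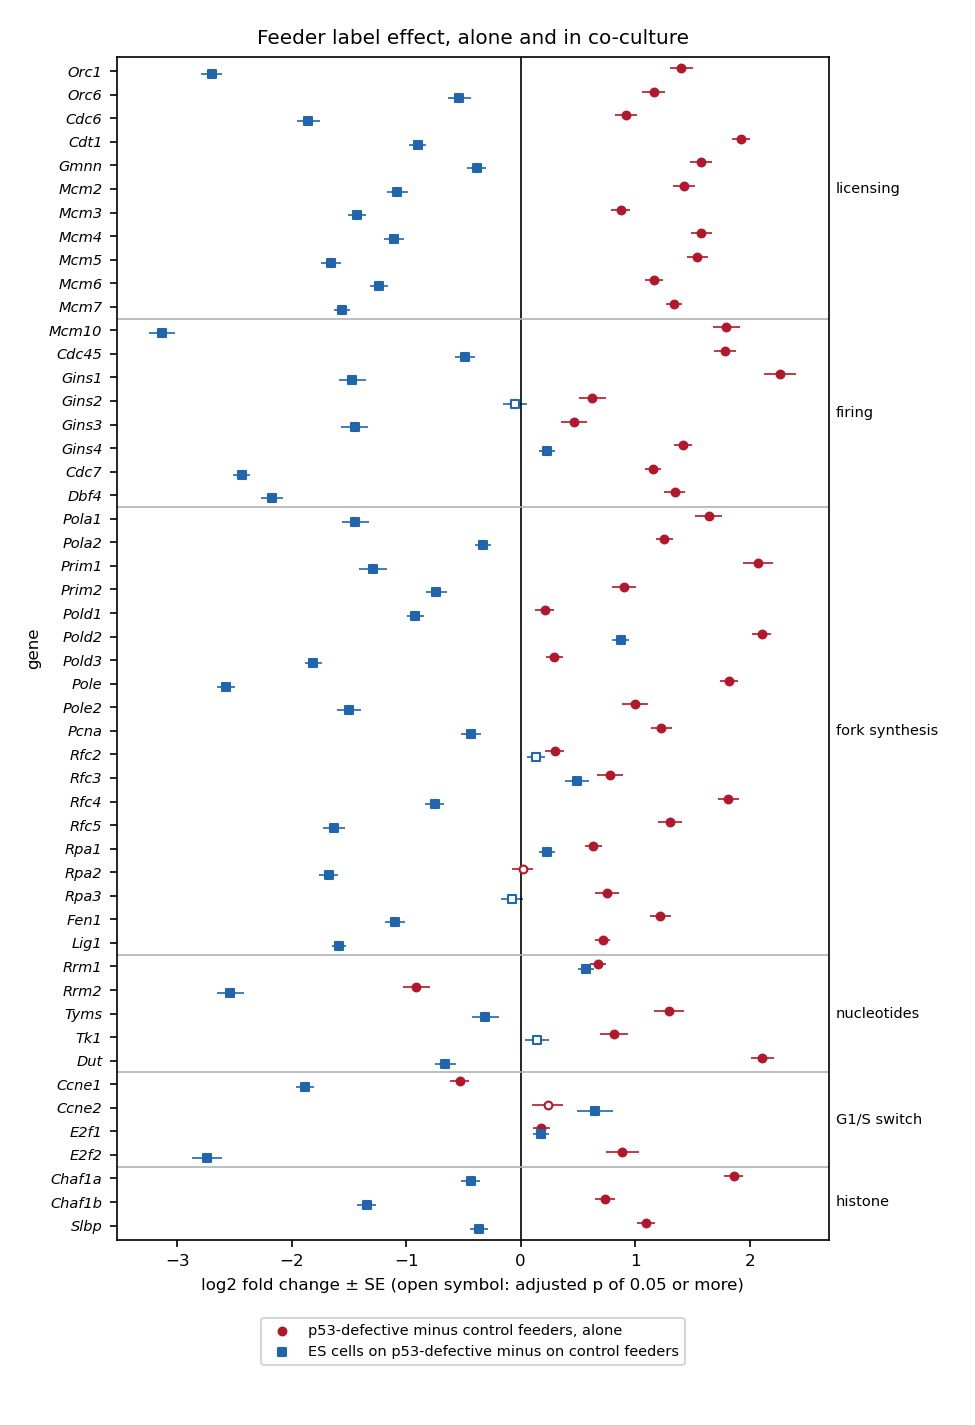
Log2 fold change ± SE of each of the 50 genes (y axis, grouped by role) for feeders labelled p53-defective against control feeders (red circles) and for ES cells on the 2 kinds of feeders (blue squares), with open symbols for an adjusted p of 0.05 or more. The red circles lie right of 0 for all genes but Rrm2 and Ccne1, and the blue squares lie left of 0 for most genes, with Pold2 the farthest to the right at 0.88.

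The second comparison set ES cells on feeders labelled p53-defective against ES cells on control feeders. In these co-cultures 39 of the 50 genes fell, 7 rose and 4 were not called, while of all genes tested 83.4% were called, 46.7% lower and 36.6% higher. The median log2 fold change was -1.09, beside -0.18 for all genes tested, and 26 of the 50 fell at least 2-fold, beside 29.4% of all genes tested. The groups did not overlap for 38 of the 39 genes that fell and for all 7 that rose, and 45.8% of all genes tested fell and 35.7% rose without overlap. These counts are for libraries scaled by the trimmed mean of M-values (TMM). Scaled on the ES-specific genes instead, 49 of the 50 were called higher and 0 lower in edgeR, with medians of 2.30 for the 50 genes and 3.20 for all genes tested. Scaled on library totals, 43 fell and 2 rose, with medians of -1.43 and -0.52.

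All 11 licensing genes fell, from -0.39 for Gmnn to -2.70 for Orc1, the largest subunit of the origin recognition complex. Orc1 stood at 8.67, 8.92 and 9.33 CPM on feeders labelled p53-defective and at 53.8, 59.7 and 61.2 CPM on control feeders (-2.70 ± 0.09, edgeR adjusted p = 2.44e-17). The low group stood just above the level of Orc1 in control feeders alone (8.2, 8.61 and 6.31 CPM). Mcm7 stood at 138, 152 and 127 against 402, 416 and 411 CPM (-1.56 ± 0.07, edgeR adjusted p = 3.12e-15), and the other 5 helicase subunits fell by 1.08 (Mcm2) to 1.66 (Mcm5). Cdc6 fell by 1.85 ± 0.10 and its partner Cdt1 by 0.90 ± 0.07.

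Mcm10 had the deepest fall of the 50 genes. It stood at 13.8, 14.7 and 14.3 CPM against 122, 127 and 127 CPM, a log2 fold change of -3.13 ± 0.11 (edgeR adjusted p = 6.01e-17). The firing kinase fell in both of its subunits: Cdc7 stood at 8, 7.93 and 7.55 against 43, 40.8 and 43.2 CPM (-2.44 ± 0.08, edgeR adjusted p = 6.47e-18) and Dbf4 at 22, 20.6 and 25.6 against 96.2, 107 and 104 CPM (-2.17 ± 0.10, edgeR adjusted p = 3.12e-15). The 4 GINS subunits did not move together. Gins1 and Gins3 fell by 1.47 ± 0.12 and 1.45 ± 0.12, Gins2 was not called (28.4, 36.9 and 23.9 against 30, 31.3 and 30.9 CPM, -0.05 ± 0.11, edgeR adjusted p = 0.685), and Gins4 rose by 0.23 ± 0.07 (57.8, 62.2 and 51.5 against 47.9, 49.1 and 48.9 CPM, edgeR adjusted p = 0.00554). Without the second library on feeders labelled p53-defective Gins2 was called lower, at -0.24, and Gins4 lost its call, at 0.16. Gins4 stood at -0.11 under library totals.

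Of the 19 fork genes, 14 fell. Pole fell by 2.57 ± 0.08 (12.7, 12.9 and 14.5 against 78.3, 81 and 79.5 CPM, edgeR adjusted p = 4.51e-18). Pold3, a small subunit of polymerase delta, fell by 1.81 ± 0.07 (19.6, 20.1 and 19.3 against 69.9, 69.9 and 67.5 CPM, edgeR adjusted p = 7.16e-16), and Lig1, the ligase that seals Okazaki fragments, by 1.59 ± 0.06 (63, 63.8 and 61.6 against 185, 192 and 188 CPM, edgeR adjusted p = 1.57e-16). Within the same complexes other subunits rose. Pold2 stood at 108, 122 and 96.1 against 59.8, 59.4 and 58.2 CPM (0.88 ± 0.08, edgeR adjusted p = 2.82e-10), all 3 libraries above the other group. Rpa1 stood at 401, 402 and 366 against 325, 330 and 340 CPM (0.23 ± 0.07, edgeR adjusted p = 0.00374), and at -0.11 under library totals, whereas Rpa2 fell by 1.68 ± 0.08 (30, 32.8 and 24.9 against 92.8, 92.8 and 94.4 CPM).

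The clamp loader was divided in the same way. Rfc5 fell by 1.63 ± 0.09 and Rfc4 by 0.75 ± 0.08, while Rfc3 rose by 0.49 ± 0.11 (38.3, 47.2 and 29.2 against 27.7, 27.3 and 26.4 CPM, edgeR adjusted p = 0.000244). Rfc3 lost its call under library totals, at 0.15. Rfc2 was not called (87.9, 99.6 and 77.9 against 79.8, 80.5 and 81 CPM, 0.14 ± 0.08, edgeR adjusted p = 0.109), was called lower under library totals, at -0.21, and was called higher without any 1 of the control co-cultures (0.23 to 0.24) or without the third library on feeders labelled p53-defective (0.32). Rpa3, the smallest Rpa subunit, was not called either (32.8, 35.4 and 27.9 against 34.6, 32.6 and 33.9 CPM, -0.07 ± 0.10, edgeR adjusted p = 0.482).

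In nucleotide supply, Rrm2 fell by 2.54 ± 0.12 (49.2, 59.3 and 48.4 against 293, 300 and 317 CPM) while Rrm1 rose by 0.57 ± 0.07 (371, 388 and 375 against 243, 254 and 268 CPM, edgeR adjusted p = 9.94e-08). Dut fell by 0.66 ± 0.09. Tyms was called lower at -0.31 ± 0.12 with overlapping libraries (45.5, 59 and 36.2 against 57.2, 58.4 and 58.4 CPM), and its call was lost without the first or the third library on feeders labelled p53-defective (-0.30 and -0.05) and without any 1 of the control co-cultures (-0.22 to -0.20). Tk1 was not called (32, 44.5 and 29.6 against 31.2, 33.2 and 31.5 CPM, 0.14 ± 0.11, edgeR adjusted p = 0.22), and was called higher at 0.35 without the third library on feeders labelled p53-defective and at 0.27 without the second control co-culture.

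Of the G1/S switch genes, E2f2 fell by 2.74 ± 0.13 (1.94, 2.31 and 1.78 against 13.8, 13.2 and 13.3 CPM) and Ccne1 by 1.88 ± 0.08 (36.9, 38 and 30.8 against 127, 131 and 131 CPM, edgeR adjusted p = 1.07e-15). Ccne2 rose by 0.65 ± 0.15 (8.31, 8.67 and 6.83 against 4.62, 5 and 5.55 CPM, edgeR adjusted p = 0.000577), and lost the call under library totals, at 0.31. E2f1 rose by 0.18 ± 0.07 (54, 58.8 and 54.4 against 48.1, 52.2 and 47.5 CPM, edgeR adjusted p = 0.0243), lost the call without the second library on feeders labelled p53-defective, at 0.12, and was called lower under library totals, at -0.16. The 3 histone genes fell, Chaf1b by 1.34 ± 0.08 and Chaf1a and Slbp, which binds histone messenger RNA, by 0.44 ± 0.08 and 0.36 ± 0.08. Beside all of these, the 10 ES cell markers were lower in the same libraries. Of the 12 fibroblast markers 8 were higher, 2 were at least 2-fold lower and 2 were not called. The part of these markers in the differences was not tested.

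The E2F letters of the promoter windows were set beside the co-culture values. The 15 genes with the letters had a median log2 fold change of -1.50, with 14 lower and 1, Rfc3, higher. The 26 genes with a window and without the letters had a median of -0.60, with 20 lower and 4 higher. In the feeders alone the medians were 0.92 and 1.22. For ES cells after feeder removal against control feeders they were 2.36 and 2.06. The part of the cell type markers in the co-culture medians was not tested. These medians are a description of the listed genes, with no test, and a match is not evidence that a factor binds there.

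The difference between the 2 comparisons was tested too, as the co-culture log2 fold change minus that in the feeders alone. Cell type markers moved with this contrast. All 12 fibroblast markers (median 4.40) and all 6 macrophage markers (median 8.23) were higher. Of the ES cell markers 4 were lower and 6 not called (median -3.86). The part of these markers was not tested. The difference was negative and called for 45 of the 50 genes and positive and called for none of them in edgeR, while 73.6% of all genes tested were called, 34.8% lower and 38.8% higher. The median was -2.19, beside 0.04 for all genes, and 41 of the 50 were at least 2-fold lower, beside 22.9% of all genes tested. The largest were those of Mcm10 (-4.93 ± 0.16, edgeR adjusted p = 3.09e-17), Pole (-4.39 ± 0.11, edgeR adjusted p = 4.77e-19) and Orc1 (-4.10 ± 0.13, edgeR adjusted p = 3.09e-17). Cdc7 stood at -3.59 ± 0.10 (edgeR adjusted p = 2.73e-18). It was not called for Rfc2 (-0.16 ± 0.12), Rfc3 (-0.29 ± 0.16), Rrm1 (-0.11 ± 0.10), E2f1 (-0.00 ± 0.10) and Ccne2 (0.41 ± 0.20, edgeR adjusted p = 0.0741). Ccne2 was called higher without the third control co-culture (0.52), without the third library on feeders labelled p53-defective (0.55) or without the first library of these feeders alone (0.64). Rfc2 and Rfc3 were called lower without the second library on feeders labelled p53-defective (-0.26 and -0.48). Under library totals Rfc2, Rfc3, Rrm1 and E2f1 were called lower, at -0.42 (E2f1) to -0.70 (Rfc3). Scaled on the ES-specific genes, 34 of the 50 differences were called higher and 7 lower, beside 13025 and 519 of all genes tested (medians of 0.80 and 3.06). In control feeders and feeders labelled p53-defective the ES-specific genes stood at 0.518% and 0.341% of the feeder-removed level. This scaling thus rests on low counts there and decides nothing about the 50 genes.

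A further comparison set ES cells on feeders labelled p53-defective against those feeders alone. In it 9 of 10 ES cell markers, 11 of 12 fibroblast markers (median 1.60) and 4 of 6 macrophage markers (median 3.02) were higher, and their part in the values was not tested. Of the 50 genes, 24 fell, 16 rose and 10 were not called (79.7% of all genes tested were called, 33% lower and 46.7% higher), with a median of -0.13 beside 0.27 for all genes. Cdc7 had the largest fall, to 7.83 from 45.5 CPM (-2.54 ± 0.08, edgeR adjusted p = 2.06e-17). Pole (-2.05 ± 0.08), Dbf4 (-1.77 ± 0.10), Pola1 (-1.57 ± 0.12), Mcm10 (-1.48 ± 0.11), Orc1 (-1.19 ± 0.10), Mcm4 (-1.06 ± 0.09) and Chaf1a (-1.03 ± 0.08) also fell. Rpa1 (1.57 ± 0.07, edgeR adjusted p = 1.18e-14), Rfc2 (1.23 ± 0.08), Rrm1 (1.07 ± 0.07), E2f1 (0.78 ± 0.07), Pold1 (0.77 ± 0.08), Pold2 (0.65 ± 0.08), Ccne1 (0.55 ± 0.08) and Lig1 (0.43 ± 0.06) rose. The genes not called were Mcm2, Mcm3, Mcm5, Cdc45, Gins4, Pola2, Rfc4, Fen1, Rrm2 and Tyms, with values from -0.14 for Cdc45 to 0.23 for Rrm2. Of these, Mcm2, Mcm3, Mcm5, Cdc45, Gins4, Pola2, Fen1, Rrm2 and Tyms were called when 1 or another single library was left out, at -0.27 (Mcm2, Tyms) to 0.47 (Rrm2), and Chaf1b and Prim2 lost their calls that way. Under library totals 33 of the 50 fell and 11 rose, with a median of -0.41 beside 0.00 for all genes.

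The level in ES cells on feeders labelled p53-defective was also placed against the groups that share one of its components. For 22 of the 50 genes, all 3 of its libraries lay below all libraries both of these feeders alone and of ES cells on control feeders, beside 18.9% of all genes tested. They comprised Orc1, Orc6, Cdc6, Cdt1, Mcm4, Mcm6 and Mcm7 in licensing, Mcm10, Gins1, Gins3, Cdc7 and Dbf4 in firing, Pola1, Prim1, Pold3, Pole, Pole2 and Pcna at the fork, and Dut, E2f2, Chaf1a and Slbp. Cdc7 shows the pattern plainly: its libraries stood at 7.55 to 8 CPM where the others stood at 44.4 to 46.7 and 40.8 to 43.2 CPM. For 5 genes, Pold2, Rfc3, Rpa1, Rrm1 and E2f1, the libraries lay above both groups, beside 23% of all genes tested. The other 23 genes lay between or overlapped.

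**Figure D3:**
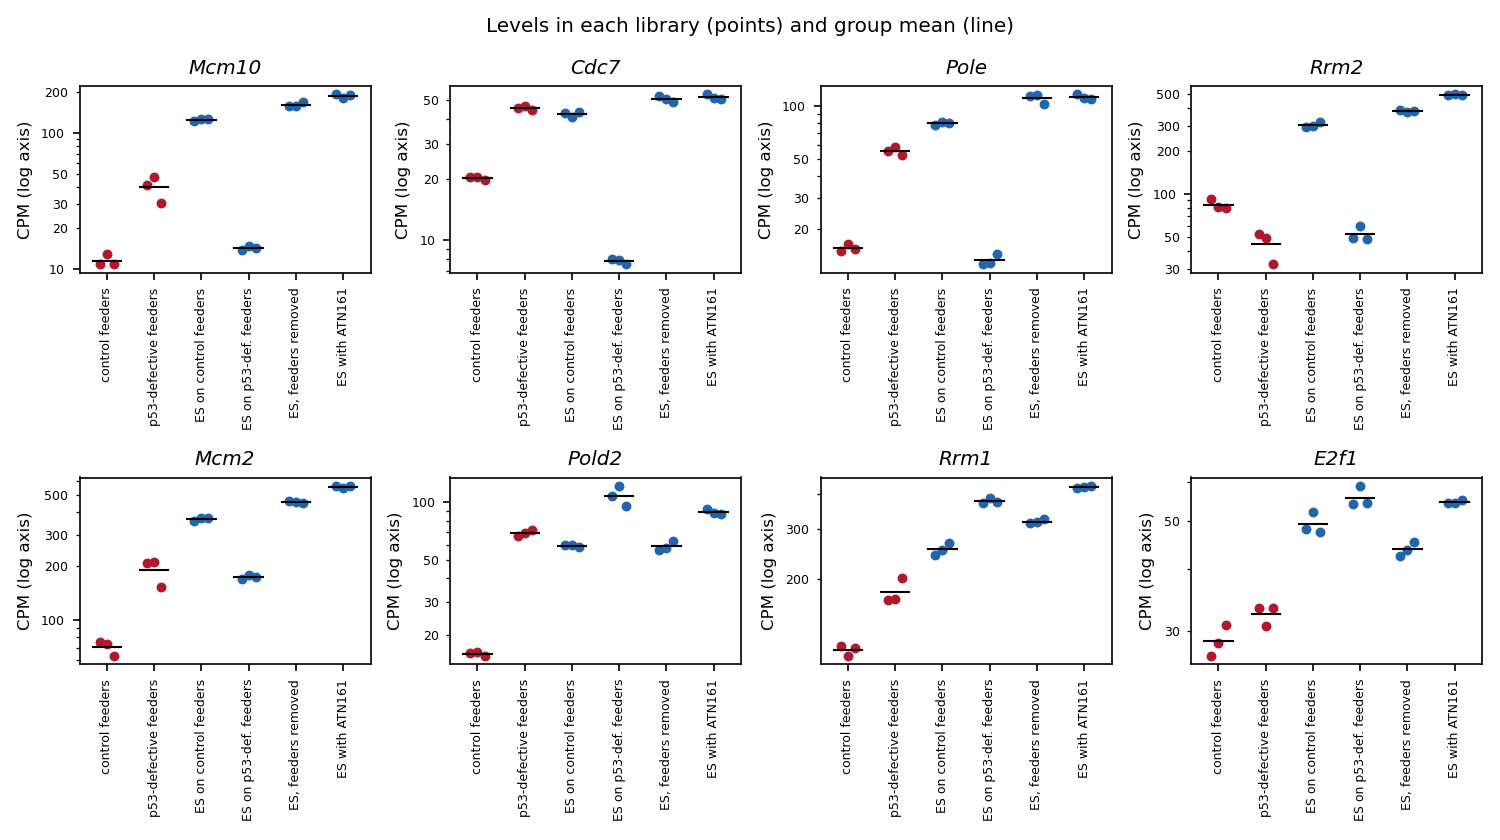
CPM on a log axis of 8 genes in each library (points; red for feeders alone, blue for libraries with ES cells), with the mean of each group of 3 as a line. In the upper row, Mcm10, Cdc7, Pole and Rrm2 drop in ES cells on feeders labelled p53-defective, and Cdc7 and Pole reach their lowest level there; in the lower row Mcm2 stands at 170 to 178 CPM in that group while Pold2, Rrm1 and E2f1 lie above ES cells on control feeders.

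Ratios between subunits of 1 complex do not depend on how libraries are scaled. In co-cultures these ratios are of RNA of both kinds of cell, and the part of the mix in them was not tested. They were taken from the deposited TPM, a transcript level per length that was summed per gene, for pairs picked after their values were seen. Rpa1 to Rpa2 stood at 7.25, 6.62 and 7.93 in ES cells on feeders labelled p53-defective, at 1.89, 1.91 and 1.94 on control feeders, and at 2.83, 3.13 and 3.61 in the feeders labelled p53-defective alone. Pold2 to Pold3 stood at 11.3, 12.5 and 10.3 in the first group, 1.76, 1.76 and 1.79 in the second and 4.95, 5.42 and 6.1 in the third. Both ratios in ES cells on feeders labelled p53-defective lay above every library of the other 5 groups.

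Rrm1 to Rrm2 stood at 3.84, 3.33 and 3.94 in ES cells on feeders labelled p53-defective, 0.424, 0.432 and 0.429 on control feeders, and 1.65, 1.75 and 3.19 in the feeders labelled p53-defective. The small subunit was thus the less abundant one in both groups with these feeders and the more abundant one in the other 4 groups, where the ratio was 0.419 to 0.737. Gins4 to Gins3 was 22.7 ± 2.1 in ES cells on feeders labelled p53-defective and 5.06 to 9.78 as group means elsewhere, and Pole2 to Pole was 3.51 ± 0.97 and 1.24 to 2.2. Ccne1 to Ccne2 was 42 ± 3.1 in ES cells on control feeders, 40 ± 5.7 after feeder removal and 53.8 ± 4.5 with ATN161, against 4.41 ± 0.43 and 2.65 ± 0.44 in control feeders and feeders labelled p53-defective, and it was 7.18 ± 0.12 in ES cells on the latter. Since the pairs were picked on these values, no test is given for them.

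**Figure D4:**
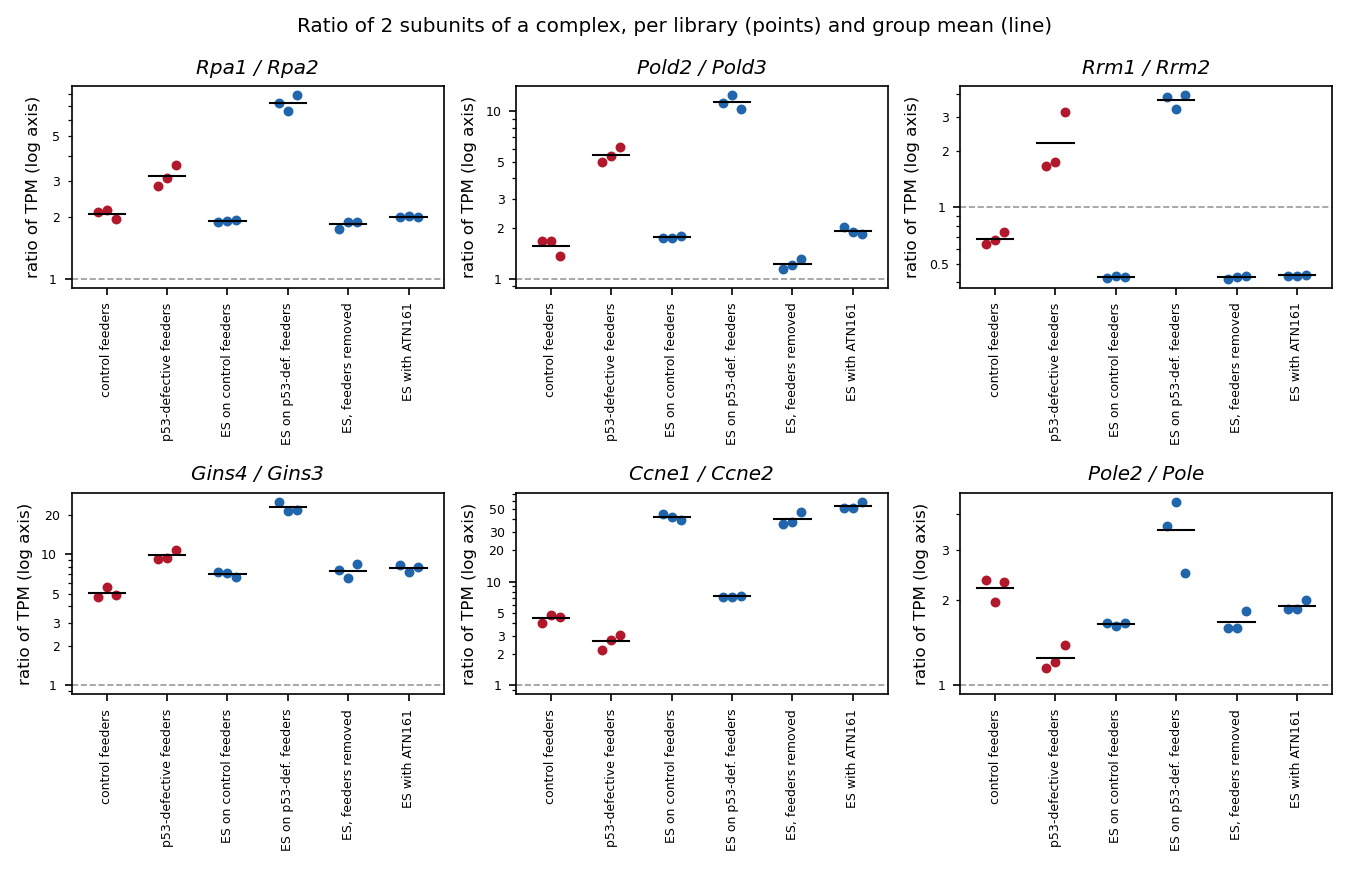
Ratio of the TPM of 2 subunits or paralogs on a log axis, for 6 pairs, in each library (points; red for feeders alone, blue for libraries with ES cells) with the group mean as a line and a dashed line at 1. ES cells on feeders labelled p53-defective hold the highest mean ratio in 5 panels, and in the panel of Ccne1 to Ccne2 they stand at 7.11 to 7.32 between the feeders alone and the other ES cell groups.

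Per length, the helicase subunits kept one order at the top: Mcm7 had the highest TPM of Mcm2 to Mcm7 in all 6 groups, from 57.7 TPM in control feeders to 399.6 TPM with ATN161. The lowest was Mcm5 in the feeders alone and in ES cells on feeders labelled p53-defective, and Mcm4 in the other groups. The ratio of highest to lowest lay between 2.25 and 3.42. The polymerase alpha complex was less even, with its catalytic subunit Pola1 lowest in every group, at 2.51 TPM in ES cells on feeders labelled p53-defective and 25.6 TPM after feeder removal.

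The remaining comparisons concern ES cells on control feeders, after feeder removal and with ATN161, and they share groups, so that they are not independent of one another. After feeder removal 38 of the 50 genes rose relative to ES cells on control feeders, 12 were not called and 0 fell in edgeR, while 52% of all genes tested were called, 25.5% higher and 26.5% lower. DESeq2 and limma-voom each called 39 higher and 1, E2f1, lower. The median was 0.32, beside -0.01 for all genes, and Pola1 was the 1 gene that rose at least 2-fold. Pola1, the catalytic subunit of polymerase alpha, stood at 85.4, 94 and 78.3 CPM against 30.7, 34.3 and 37.4 CPM (1.33 ± 0.10, edgeR adjusted p = 1.93e-09). Dbf4 stood at 189, 189 and 163 against 96.2, 107 and 104 CPM (0.82 ± 0.09, edgeR adjusted p = 1.32e-07), and Orc1 at 91, 87 and 86.9 against 53.8, 59.7 and 61.2 CPM (0.60 ± 0.08, edgeR adjusted p = 1e-06). Each of these groups lay apart.

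All 11 licensing genes and all 5 nucleotide genes rose after feeder removal, by 0.29 to 0.60 and by 0.30 to 0.49. Pold3 (0.53 ± 0.07), Pole (0.47 ± 0.07), Gmnn (0.55 ± 0.08), Pcna (0.57 ± 0.09) and Ccne1 (0.43 ± 0.07) rose as well. Not called were Cdc45, Gins2, Gins3, Pola2, Pold2, Rfc2, Rfc4, Rpa1, Rpa2, Fen1, E2f1 and E2f2, at -0.17 (E2f1) to 0.20 (Gins3). E2f1 was called lower without the first or the third control co-culture (-0.24 each) or the second feeder-removed library (-0.21). Chaf1b, Pold1, Prim2 and Rfc5 lost their calls whichever of the 6 libraries was left out. Ccne2, Cdc7, Dut, Lig1, Mcm2, Rfc3, Rpa3 and Rrm2 lost theirs without at least 1 of them. With 5 of these 6 libraries, 27 to 32 of the 50 genes were called higher. The fibroblast markers summed to 5811 ± 262 CPM after removal and 8801 ± 198 CPM before it, and the ES cell markers to 4512 ± 89.3 and 3150 ± 85.3 CPM. Scaled on the ES-specific genes, 7 of the 50 were higher and 3 lower, with a median of 0.07. Of all genes tested, 1463 were higher and 6608 lower under that scaling, with a median of -0.26.

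With ATN161, 48 of the 50 genes rose relative to ES cells on control feeders and 2 were not called (61.6% of all genes tested were called, 33.6% higher and 28% lower). The median was 0.57, beside 0.07 for all genes, and no gene rose 2-fold. Orc1 rose the most, at 110, 110 and 112 against 53.8, 59.7 and 61.2 CPM (0.93 ± 0.08, edgeR adjusted p = 6.04e-10). Rpa1 stood at 569, 552 and 572 against 325, 330 and 340 CPM (0.77 ± 0.07, edgeR adjusted p = 3.38e-09), and Rrm1 at 419, 422 and 427 against 243, 254 and 268 CPM (0.73 ± 0.07, edgeR adjusted p = 7.81e-09). Chaf1b (0.73 ± 0.08), Rpa2 (0.70 ± 0.08), Gins4 (0.66 ± 0.07), Mcm7 (0.64 ± 0.07) and Lig1 (0.55 ± 0.06) were the others with the smallest p. Not called were Ccne2 (0.16 ± 0.16) and E2f1 (0.15 ± 0.07). The fibroblast markers summed to 2291 ± 76.8 CPM with ATN161 and 8801 ± 198 CPM on control feeders. The ES cell markers summed to 5424 ± 95 and 3150 ± 85.3 CPM, with 9 of the 10 higher and 1 lower (median 0.74). The part of either list in the difference was not tested. Scaled on the ES-specific genes, 15 of the 50 were higher and 1 lower, with a median of 0.14. Of all genes tested, 711 were higher and 7729 lower under that scaling, with a median of -0.36.

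Set against ES cells after feeder removal, ES cells with ATN161 were higher for 30 of the 50 genes, lower for 2 and not called for 18 (55.4% of all genes tested were called, 28.6% higher and 26.8% lower), with a median of 0.30, beside 0.03 for all genes. In the same comparison 11 of the 12 fibroblast markers fell at least 2-fold (median -2.03, with sums of 2291 and 5811 CPM). Of the 10 ES cell markers, 5 were higher, 3 lower and 2 not called (median 0.22, with sums of 5424 and 4512 CPM). The part of either list in the values was not tested. E2f2 stood at 23.8, 24.9 and 24.2 against 14, 13.1 and 13.2 CPM (0.85 ± 0.10, edgeR adjusted p = 1.97e-07). Rpa1 (0.64 ± 0.07), Pold2 (0.59 ± 0.08), Rfc4 (0.56 ± 0.08), Rpa2 (0.53 ± 0.08), Chaf1b (0.51 ± 0.08), Rfc2 (0.46 ± 0.08) and Lig1 (0.34 ± 0.06) rose. The genes that had risen most after feeder removal were the 2 that were lower with ATN161: Pola1 at 61.1, 67 and 62.2 against 85.4, 94 and 78.3 CPM (-0.44 ± 0.10, edgeR adjusted p = 0.000895), and Dbf4 at 140, 147 and 138 against 189, 189 and 163 CPM (-0.35 ± 0.09, edgeR adjusted p = 0.00184). The genes not called were Cdc6, Cdt1, Gmnn, Mcm3, Mcm4, Mcm10, Cdc7, Pold3, Pole, Pcna, Rfc3, Tyms, Tk1, Dut, Ccne1, Ccne2, Chaf1a and Slbp, at -0.36 (Ccne2) to 0.22 (Tyms, Tk1). Ccne2 was called lower without the third feeder-removed library, at -0.43. Gins1, Gins3, Mcm2, Mcm6, Pole2, Prim1 and Prim2 lost their calls without at least 1 of the 6 libraries, with values of 0.18 (Pole2) to 0.31 (Prim1). Scaled on the ES-specific genes, 11 of the 50 were higher and 4 lower, with a median of 0.13. Of all genes tested, 2079 were higher and 5239 lower under that scaling, with a median of -0.14.

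**Figure D5:**
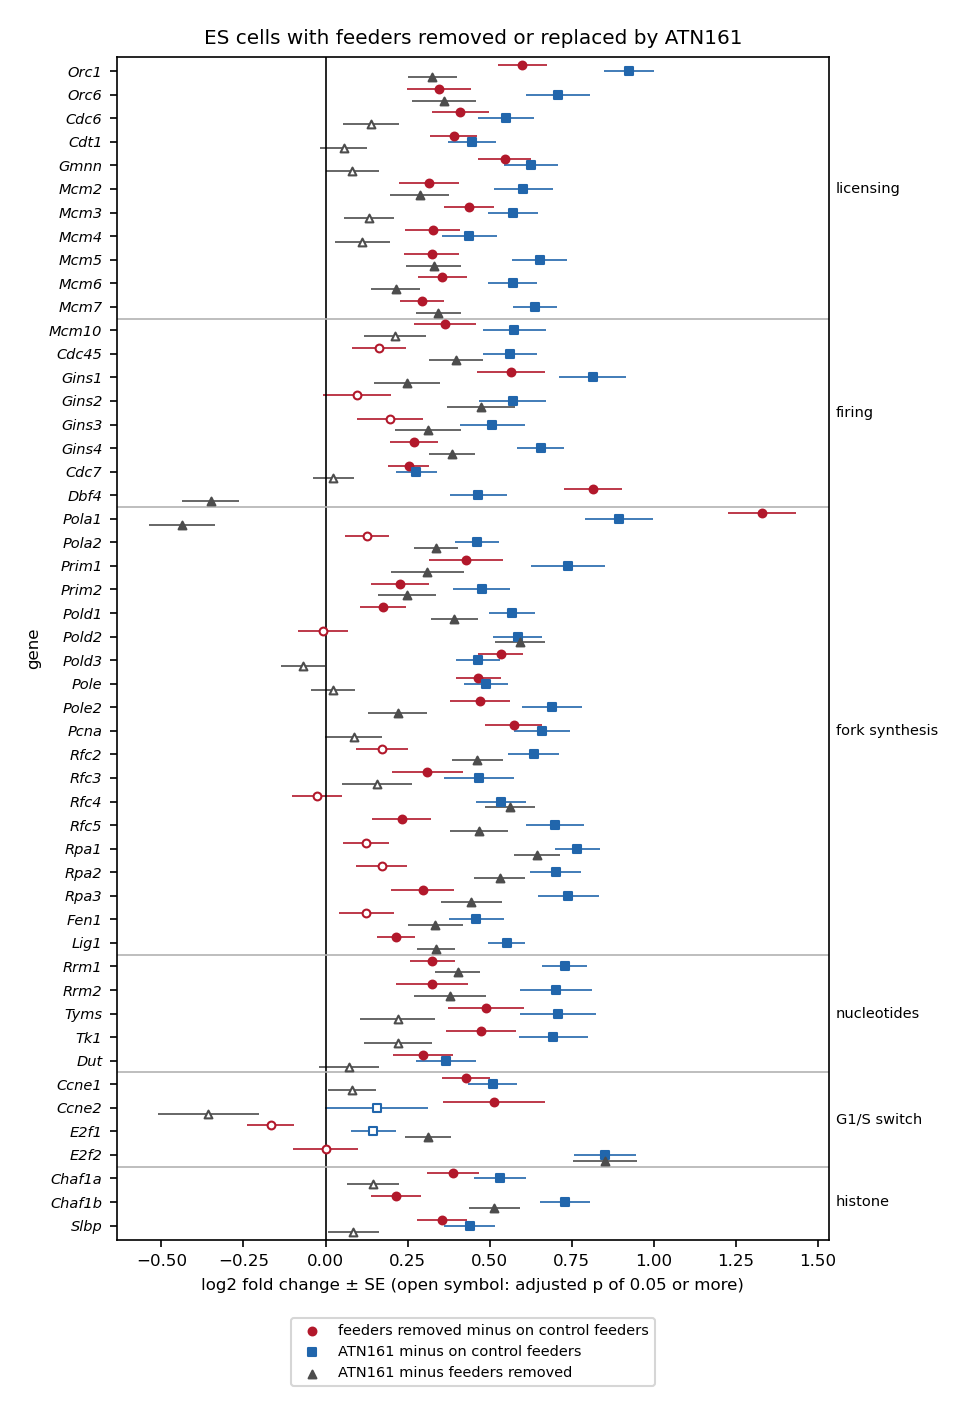
Log2 fold change ± SE of the 50 genes (y axis, grouped by role) for ES cells after feeder removal against ES cells on control feeders (red circles), ATN161 against ES cells on control feeders (blue squares) and ATN161 against feeder removal (grey triangles), with open symbols for an adjusted p of 0.05 or more. Red and blue symbols lie right of 0 for nearly all genes, Pola1 and Dbf4 are the genes whose filled triangles lie left of 0, and E2f2 is at 0 after removal and 0.85 in the other comparisons.

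ES cells after feeder removal were also set against control feeders. Neither group was free of other cells' markers: the fibroblast markers summed to 5811 CPM after removal, and the macrophage markers to 147 CPM in control feeders. Of the 50 genes, 49 were higher in the ES cells and 1 lower (85.9% of all genes tested were called, 45.1% higher and 40.8% lower), with a median of 2.16, beside 0.09 for all genes, and 47 at least 2-fold higher, beside 28.8% of all genes tested. The largest were Mcm10 (3.81 ± 0.12), Rfc5 (3.60 ± 0.11), Mcm5 (3.55 ± 0.10) and Orc1 (3.52 ± 0.09), and the smallest were E2f1 (0.61 ± 0.07) and Gins3 (0.93 ± 0.11). Ccne2 was the exception, at 7.9, 7.32 and 6.44 CPM in the ES cells against 13.7, 12.6 and 12.9 CPM (-0.85 ± 0.14, edgeR adjusted p = 8.5e-06).

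Other genes of the same processes were followed as lists. In the feeders labelled p53-defective, where 35.9% of all genes tested rose and 38.4% fell, all 21 other replication genes rose (median 0.73), as did 14 of 15 in nucleotide metabolism (median 1.02) and 10 of 12 in chromatin copying (median 1.46). Of 23 other G1/S control genes, 11 rose and 9 fell (median 0.12), and the share that fell was close to that of all genes. Mtbp, which helps load Cdc45, rose by 2.12 ± 0.10, the kinase gene Cdk6 by 2.56 ± 0.13, the CTP synthase gene Ctps by 1.29 ± 0.07 and the chromatin remodeller gene Hells by 2.09 ± 0.09.

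In ES cells on feeders labelled p53-defective, where 46.7% of all genes tested fell and 36.6% rose, 14 of the 21 replication genes fell and 3 rose (median -0.93), 14 of the 23 G1/S genes fell and 5 rose (median -0.67), 8 of the 15 nucleotide genes fell and 6 rose (median -0.29), and 10 of the 12 chromatin genes fell (median -1.47). The split of the nucleotide genes was close to that of all genes. Ticrr, an initiation factor, fell by 4.09 ± 0.12, and Mybl2, an E2F target that drives later cell cycle genes, fell by 3.46 ± 0.10. The cohesin acetyltransferase gene Esco2 fell by 3.66 ± 0.11 and the nuclease gene Dna2 fell by 3.24 ± 0.11. Against that direction, Pold4, the smallest subunit of polymerase delta, rose by 3.52 ± 0.13 and Ctps by 1.02 ± 0.07. With ATN161 in place of control feeders, where 33.6% of all genes tested rose and 28% fell, 19 of the 21 replication genes rose and 1 fell, 14 of the 23 G1/S genes rose and 6 fell, 11 of the 15 nucleotide genes rose and 1 fell, and all 12 chromatin genes rose. The share of the G1/S genes that fell was close to that of all genes. The D cyclin genes Ccnd2 and Ccnd1 fell by 2.81 ± 0.09 and 1.83 ± 0.08 and Cdkn1a by 1.20 ± 0.12 in that comparison. All 12 fibroblast markers fell in it too, 11 of them at least 2-fold (median -2.05), and their part in these falls was not tested.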

How the data were processed

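The deposited table holds, per the file headers, estimated (expected) counts, FPKM (not used here) and TPM values of 75416 transcripts in 18 libraries. The authors purified total RNA with Trizol and made libraries with a TruSeq messenger RNA kit, per the labels' protocols. Per the submitters' processing notes, StringTie 1.3.3b, HISAT2 2.1.0, DESeq2 1.2.10 and SAMtools 1.4 were used, with the builds mm10 and GRCm38 and no role given for any. The deposited expected counts were summed per Entrez gene, rounded and filtered with filterByExpr, which kept 15389 of 19630 genes. TPM values, as the authors deposited them, were summed per gene and used only to compare genes with one another. Because the sums include predicted transcript models and reads shared between isoforms were apportioned before deposit, small differences between related genes are uncertain.

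Differences were tested with edgeR 4.0.16 (R 4.3.3), TMM scaling and 1 robust quasi-likelihood fit of all 18 libraries, two-sided, with Benjamini-Hochberg adjustment over all genes tested and a threshold of 0.05, under which a gene is said to be called. Groups came from the sample labels. Levels are TMM-scaled CPM, with library totals of 15.12 to 19.83 M counts and a common biological coefficient of variation of 0.0792. Replicates correlated at 0.9892 to 0.9953 (Pearson, log2 CPM), and no pair agreed within sampling noise (chi-square per degree of freedom of 1.94 to 42.15). Alternatives were other scalings, DESeq2 1.42.0, limma-voom 3.58.1, other filters, a replicate term, fits of only the groups compared and leaving out each library.

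The 50 genes and the lists were chosen with earlier results of these data known. Any of the 50 may be named: full values are given for up to 8 genes with the smallest p in each direction and for genes not called or against the majority, and up to 4 genes of any other list by smallest p. Trp53, Cdkn1a and cell type markers served as checks.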

Additional observations from a re-analysis of the deposited data

Results flagged for a closer look

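The log2 fold change between the feeder labels differed between co-cultures and feeders alone. For 45 of the 50 genes, the log2 fold change in ES cells on feeders labelled p53-defective against ES cells on control feeders, minus that in the feeders alone, passed the threshold in edgeR's quasi-likelihood test (Benjamini-Hochberg adjusted p below 0.05), and each difference was negative. Over all genes tested 34.8% of the differences were called lower. Among the licensing genes the differences were Orc1 -4.10, Orc6 -1.70, Cdc6 -2.78, Cdt1 -2.83, Gmnn -1.96, Mcm2 -2.51, Mcm3 -2.30, Mcm4 -2.69, Mcm5 -3.20, Mcm6 -2.40 and Mcm7 -2.90. Among the firing genes the differences were Mcm10 -4.93, Cdc45 -2.27, Gins1 -3.74, Gins2 -0.67, Gins3 -1.92, Gins4 -1.19, Cdc7 -3.59 and Dbf4 -3.52. Among the fork genes the differences were Pola1 -3.09, Pola2 -1.59, Prim1 -3.36, Prim2 -1.64, Pold1 -1.13, Pold2 -1.23, Pold3 -2.11, Pole -4.39, Pole2 -2.50, Pcna -1.67, Rfc4 -2.56, Rfc5 -2.93, Rpa1 -0.40, Rpa2 -1.69, Rpa3 -0.83, Fen1 -2.32 and Lig1 -2.30. Among the nucleotide genes the differences were Rrm2 -1.62, Tyms -1.60, Tk1 -0.67 and Dut -2.77. Among the G1/S switch genes the differences were Ccne1 -1.35 and E2f2 -3.63. Among the histone genes the differences were Chaf1a -2.30, Chaf1b -2.08 and Slbp -1.46. The cell type markers given in the report moved with the same contrast, and their part in these differences was not tested. Under scaling on ES-specific genes 34 differences were called higher and 7 lower, beside 13025 and 519 of all genes tested. No group held 4 or more libraries, so single libraries were not tested as outliers.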

How the results depend on the processing

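The counts of the 50 genes called kept within 1.5 times of those reported under DESeq2 size factors, the DESeq2 and limma-voom tests, other filters and fits of only the groups compared, except that 1 gene, E2f1, was called lower after feeder removal under DESeq2 size factors, library totals, DESeq2, limma-voom, no filter, a filter of 5 CPM and a fit of the compared groups. Leaving out each library gave 0 to 1 lower there, and 0 to 1 higher (Ccne2) for the difference between the effects of the feeder label. Library totals left 2 genes higher in ES cells on feeders labelled p53-defective, and reversed the sign of 4 log2 fold changes in that comparison, to Gins4 -0.11, Rfc2 -0.21, Rpa1 -0.11 and E2f1 -0.16, and of 4 against the feeders alone, to Mcm3 -0.20, Mcm5 -0.25, Gins4 -0.24 and Prim2 -0.0062. The median against the feeders alone was 0.012 without the second library of those feeders.

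Scaling on the ES-specific genes moves every gene by nearly the same amount, here 3.37 to 3.39 (log2) for the 50 genes in the co-cultures and from 2.97 upwards for the difference between effects, so the sign changes listed here follow from that shift and show nothing of single genes. The median of all genes became 3.20 in the co-cultures, 0.33 in feeders and 3.06 for the difference between effects. After feeder removal this median was -0.26, and with ATN161 it was -0.36 against control feeders and -0.14 against feeder removal. Of the 50 genes, this scaling gave 1 lower in feeders, 49 higher and 0 lower in the co-cultures (median 2.30), 7 higher and 3 lower after feeder removal, 15 and 1 with ATN161 against control feeders, 11 and 4 against feeder removal, and 34 and 7 for the difference between the effects of the feeder label (median 0.80). It reversed the sign of these co-culture log2 fold changes: Orc1 0.69, Orc6 2.85, Cdc6 1.53, Cdt1 2.48, Gmnn 3.0, Mcm2 2.31, Mcm3 1.96, Mcm4 2.29, Mcm5 1.73, Mcm6 2.15, Mcm7 1.82, Mcm10 0.25, Cdc45 2.90, Gins1 1.91, Gins2 3.33, Gins3 1.93, Cdc7 0.95, Dbf4 1.22, Pola1 1.95, Pola2 3.05, Prim1 2.09, Prim2 2.65, Pold1 2.46, Pold3 1.57, Pole 0.81, Pole2 1.88, Pcna 2.95, Rfc4 2.64, Rfc5 1.75, Rpa2 1.71, Rpa3 3.31, Fen1 2.29, Lig1 1.80, Rrm2 0.84, Tyms 3.07, Dut 2.72, Ccne1 1.50, E2f2 0.64, Chaf1a 2.95, Chaf1b 2.04 and Slbp 3.02. It reversed the sign of these differences between effects: Orc6 1.28, Cdc6 0.21, Cdt1 0.16, Gmnn 1.03, Mcm2 0.48, Mcm3 0.69, Mcm4 0.30, Mcm6 0.59, Mcm7 0.093, Cdc45 0.72, Gins2 2.31, Gins3 1.06, Gins4 1.80, Pola2 1.40, Prim2 1.35, Pold1 1.86, Pold2 1.76, Pold3 0.87, Pole2 0.49, Pcna 1.32, Rfc2 2.83, Rfc3 2.69, Rfc4 0.42, Rfc5 0.051, Rpa1 2.59, Rpa2 1.29, Rpa3 2.15, Fen1 0.67, Lig1 0.69, Rrm1 2.88, Rrm2 1.36, Tyms 1.37, Tk1 2.30, Dut 0.21, Ccne1 1.63, E2f1 2.98, Chaf1a 0.69, Chaf1b 0.90 and Slbp 1.52. After feeder removal it gave reversed values of Cdc7 -0.0039, Prim2 -0.029, Pold1 -0.081, Rfc5 -0.025, Lig1 -0.042 and Chaf1b -0.042, and with ATN161 against control feeders Cdc7 -0.15, Dut -0.062 and E2f1 -0.28. This scaling was not run for ES cells against feeders, where those genes differ by definition, nor for ES cells on feeders labelled p53-defective against these feeders. It was run for the feeders alone and for the difference between effects. In control feeders and feeders labelled p53-defective the ES-specific genes stood at 0.518% and 0.341% of the feeder-removed level, so the scaling rests on low counts there.

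Same-numbered libraries correlated at -0.07 to 0.223 in their deviations from the group mean, and in no comparison were all 3 pairs over 0.1. Differently numbered libraries were not correlated, so these values cannot decide whether replicate numbers pair the libraries. With a replicate block 46 genes rose and 2 fell in feeders, 7 and 39 in the co-cultures, 37 and 0 after feeder removal, 48 and 0 with ATN161 against control feeders, 29 and 3 against feeder removal, 49 and 1 in ES cells against feeders and 16 and 24 in the remaining comparison, with 0 higher and 45 lower for the difference between effects. At these depths 1 count was at most 0.0661 CPM, and the lowest group mean of the 50 genes was that of E2f2, near 2 CPM.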
